A study of Mus musculus with 6 samples.

Results

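Collagen chains are the genes whose symbol is Col, a type number, the letter a and a chain number, and 44 of the 17001 rows of the deposited expression table matched that pattern in full. They were measured in cultured preosteoblasts, the precursors of bone-forming osteoblasts, taken from the calvaria of pups 3 days old and grown in α-MEM with fetal bovine serum. The 3 control libraries are Nell2 fx/fx, and the 3 libraries labelled cKO are Col1-cre;Nell2 fx/fx, so that the floxed Nell2 allele is shared by both groups and Cre recombinase under a Col1a1 promoter is carried by the second group alone. The promoter limits Cre to the cells in which it is active, and which cells of the culture these were is not measured here. Nothing in the labels says whether replicates came from separate animals or cultures, so the p-values given here measure the spread between these libraries, which may be technical in part, although Y-linked genes differed between libraries within each group.

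Collagens are trimers of chains that wind around each other in a triple helix, which requires glycine at a fixed spacing, as the first of every 3 residues. Fibrillar collagens have an almost unbroken helix and pack into the fibrils that carry the mineral of bone, with type I as the main one, types III and V beside it, and types II and XI in cartilage. FACIT collagens sit on the surface of fibrils, type IV forms the sheet of the basement membrane, and type VI forms beaded filaments around cells. The multiplexins, types XV and XVIII, are basement membrane collagens with many breaks in the helix and carry glycosaminoglycan side chains. The 44 rows were divided by these roles into 11 fibrillar chains, 6 chains of the type IV network, 2 multiplexin chains, 9 FACIT chains, 6 beaded-filament chains, 4 transmembrane chains, 3 chains of hexagonal networks, 1 anchoring fibril chain and 2 others.

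The coding sequence shows where the glycine repeat holds and where it is broken, and a few exons are printed to let it be seen. These exons were chosen for an unbroken or a broken repeat, so they are examples and not a comparison of classes. Each is 1 coding exon of the gene in GENCODE M21 (GRCm38), read 5′ to 3′ on the coding strand, with every glycine codon that is in frame in capitals. The first 4 are exons of 54 bases, from Col1a1 (exon 8, chr11:94939904-94939957, plus strand), Col1a2 (exon 8, chr6:4515481-4515534, plus strand), Col5a3 (exon 15, chr9:20801068-20801121, minus strand) and Col9a1 (exon 11, chr1:24202014-24202067, plus strand). The other 2 are exons of 84 bases in which the repeat is broken, from Col4a1 (exon 9, chr8:11244486-11244569, minus strand) and Col15a1 (exon 19, chr4:47280987-47281070, plus strand).
Col1a1: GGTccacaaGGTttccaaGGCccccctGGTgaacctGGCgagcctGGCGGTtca
Col1a2: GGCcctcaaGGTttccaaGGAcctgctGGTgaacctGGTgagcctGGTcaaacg
Col5a3: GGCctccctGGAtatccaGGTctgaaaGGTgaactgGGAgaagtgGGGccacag
Col9a1: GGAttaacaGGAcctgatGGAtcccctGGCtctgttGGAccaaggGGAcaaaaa
Col4a1: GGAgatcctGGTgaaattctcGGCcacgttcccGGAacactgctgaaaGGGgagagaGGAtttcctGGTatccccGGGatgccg
Col15a1: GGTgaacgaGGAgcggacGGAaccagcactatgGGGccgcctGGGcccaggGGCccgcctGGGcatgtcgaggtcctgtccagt
In the 54-base exons a glycine codon opens every group of 3 codons from the first base to the last. In the Col4a1 exon that spacing is lost at several points. In the Col15a1 exon it is lost at a point between glycine codons and again after the last of them. Over whole coding sequences, the longest unbroken run of such groups spanned 216 to 344 groups in the 11 fibrillar chains. It spanned 39 to 66 in the type IV network, 37 to 87 in beaded filaments, 32 to 113 in FACIT chains and 30 in each of the 2 multiplexins. Of the 627 internal coding exons of fibrillar chains, 305 (48.6%) were 54 bases long, against 26.4% of 413 in FACIT chains and 4.23% of 284 in the type IV network. Col5a3 had a run of 337 groups, next to 338 in Col1a1 and 339 in Col1a2, while Col24a1 and Col27a1 had the shorter runs of 216 and 217.

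The deposited unit, FPKM, divides the fragments of a gene by its transcript length and by the mapped fragments of the library, so levels of different chains can be set side by side per length. The depth of the libraries cannot be read from FPKM, and no counting error is given. The 6 column sums ran from 573307 to 606428. Rows in which 3 or more libraries reached an FPKM of 1, 11590 in all, entered limma's moderated test on log2(FPKM + 1) with Benjamini-Hochberg adjustment, and on this scale differences of weakly expressed genes come out too small. The targeted gene did not separate the groups, since the FPKM of Nell2 was 3.17, 2.59 and 1.88 in the 3 control libraries, in replicate order, and 5.64, 1.61 and 5.74 in those labelled cKO (log2 fold change 0.48, SE 0.37, adjusted p = 0.591), and an FPKM of the whole gene does not separate the floxed part. The paper reports the loss of NELL2 in calvarial preosteoblasts of these mice by qRT-PCR and western blotting, which these FPKM values do not measure. All directions below follow the labels.

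As a share of all FPKM, the collagen message differed between groups by less than the spread of the libraries, and 7 of the 8 chains with the smallest p-values were of low or moderate level. The 44 chains together held 4.48%, 4.18% and 4.31% of the FPKM sum in the control libraries (replicates 1, 2 and 3, the order used throughout) and 4.50%, 4.23% and 4.43% in those labelled cKO. Their mean share was 4.32% ± 0.155 in the control libraries and 4.39% ± 0.139 in those labelled cKO (SD, n = 3 each). The plain FPKM sum was 25299 ± 609 against 25933 ± 284 (SD, n = 3 each), a difference larger than either SD, with cKO replicate 2 below control replicate 1. Of the 44 chains, 32 passed the filter on low values and were tested, and the remaining 12 had a mean FPKM under 1. Among the 32, 22 (68.8%) had a log2 fold change above 0, with a median of 0.05, whereas 44.2% of all 11590 tested genes did, with a median of -0.02. The adjusted limma p-value was under 0.05 for 0 of the 32 chains and for 0% of all tested genes. At an unadjusted p under 0.05, 8 of the 32 chains (25.0%) passed, beside 13.1% of all genes. Of these, 6 (18.8%) were higher in the libraries labelled cKO, where the background was 5.37%, and 2 (6.25%) were lower, where it was 7.76%. Among the 31 tested chains with an FPKM of at least 1 in all 6 libraries, which leaves out Col28a1, 7 passed, 5 higher and 2 lower. The share of all genes under that stricter filter is not given here, so nothing is read from this count. The 6 libraries separated the groups without overlap in 3 tested chains that were higher (Col18a1, Col5a3 and Col9a1, 9.38%), beside 6.51% of all genes. They did so in 3 that were lower (Col24a1, Col12a1 and Col26a1, 9.38%), beside 11.8% of all genes. The count of 8 depended on the libraries used. It was 4 without control replicate 1 or without control replicate 2, where 929 of all 11590 genes passed in each. It was 3 without cKO replicate 2 (963 genes) or without cKO replicate 3 (852 genes). It was 9 without cKO replicate 1 (2461 genes) and 11 without control replicate 3 (1586 genes). Of the 16 tested chains with a mean FPKM under 40, 7 were among the 8, the remaining one being Col12a1. The share of all tested genes at that level is not given here, so this is not read as particular to collagens. In bulk RNA, fewer cells of a type and less RNA per cell cannot be told apart, which holds for each value that follows.

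**Figure D1:**
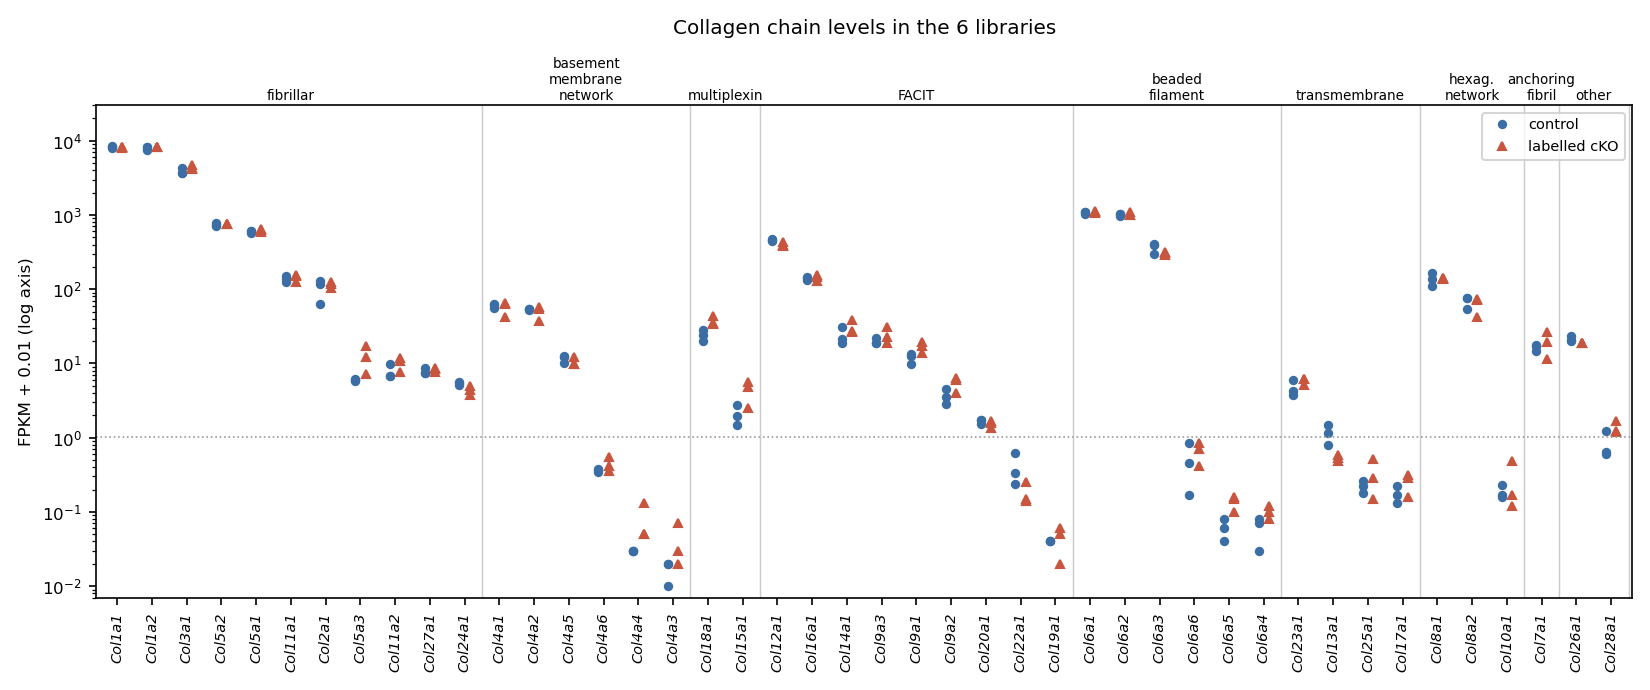
FPKM (plus 0.01, log axis) of each of the 44 collagen chains in the 3 control libraries (circles) and the 3 libraries labelled cKO (triangles), grouped by class and ordered by mean level, with the dotted line at an FPKM of 1. Col1a1 and Col1a2 lie near the top of the axis in all 6 libraries with no gap between the groups, and 12 chains lie mostly under the dotted line.

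Among fibrillar collagens, the chains of type I were the most abundant messages of the whole table. Col1a1 (chr11:94936224-94953042) had an FPKM of 8578.05, 8267.84 and 8052.61 in the control libraries and 8354.79, 8081.05 and 8301.26 in those labelled cKO, and ranked 1 of 17001 rows. Col1a2, which joins Col1a1 in the type I trimer, ranked 2 and had 8205.80, 7484.07 and 8165.98 against 8166.91, 8168.13 and 8134.38. The ranges overlapped for both chains. The log2 fold change was -0.01 for Col1a1 (SE 0.06, 95% interval -0.15 to 0.13) and 0.04 for Col1a2 (SE 0.06, 95% interval -0.11 to 0.19).

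Col3a1, the chain of type III collagen, which is found with type I in soft and young connective tissue, ranked 6. Its FPKM was 3694.04, 3699.68 and 4358.27 in the control libraries and 4664.76, 4333.86 and 4125.67 in those labelled cKO, so that control replicate 3 lay inside the range of the other group. The mean was 3917 ± 382 against 4375 ± 272 (SD, n = 3 each), with a log2 fold change of 0.16 (SE 0.09, adjusted p = 0.473). The type V chains Col5a1 and Col5a2, which join type I fibrils and limit their width, were close between groups. Col5a1 had 605.44, 603.71 and 563.20 against 642.39, 592.19 and 635.31 (log2 fold change 0.08, 95% interval -0.08 to 0.23). Col5a2 had 742.42, 714.78 and 769.89 against 758.15, 758.51 and 756.48 (log2 fold change 0.03, 95% interval -0.11 to 0.17).

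Col5a3 (chr9:20770050-20815067), the least abundant type V chain here, stood apart from its partners. Its FPKM was 5.70, 6.23 and 5.99 in the control libraries and 7.22, 17.07 and 12.29 in those labelled cKO. The control libraries lay within 1 unit of each other and below every library labelled cKO, among which replicate 1 was nearest to control. The mean was 5.97 ± 0.265 against 12.2 ± 4.93 (SD, n = 3 each), a log2 fold change of 0.85 (SE 0.26, 95% interval 0.23 to 1.46, adjusted p = 0.312). Without cKO replicate 1 it was 1.15 with an adjusted limma p of 0.0240, in a fit where 324 of all tested genes were under 0.05. Without cKO replicate 2 it was 0.58 with an adjusted limma p of 0.598. Taken as a ratio within each library, Col5a3 to Col5a1 was 0.00941, 0.0103 and 0.0106 in the control libraries and 0.0112, 0.0288 and 0.0193 in those labelled cKO.

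Fibrillar chains known from cartilage were present as well. Col2a1, the chain of type II collagen, had an FPKM of 118.35, 127.69 and 63.59 in the control libraries and 103.05, 125.97 and 117.78 in those labelled cKO, the lowest value being that of control replicate 3 (log2 fold change 0.22, SE 0.25, adjusted p = 0.721). Col11a1, which joins type II fibrils in cartilage and is also made by bone cells, had 148.81, 124.98 and 139.32 against 123.61, 154.26 and 150.74 (log2 fold change 0.05). Col11a2, a partner of Col11a1, lay between 6.67 and 11.65 (log2 fold change 0.33, SE 0.18, adjusted p = 0.464), with overlapping groups. Of the fibrillar chains with the shorter unbroken runs, Col27a1 lay between 7.49 and 8.75 in all 6 libraries. Col24a1, a chain described in developing bone, was lower in each library labelled cKO, at 4.95, 3.73 and 4.35, than in any control library, at 5.51, 5.05 and 5.68. Its log2 fold change was -0.27 (SE 0.10, 95% interval -0.50 to -0.04, adjusted p = 0.334). The median log2 fold change of the 11 fibrillar chains was 0.06, with 9 above 0 and 2 below.

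**Figure D2:**
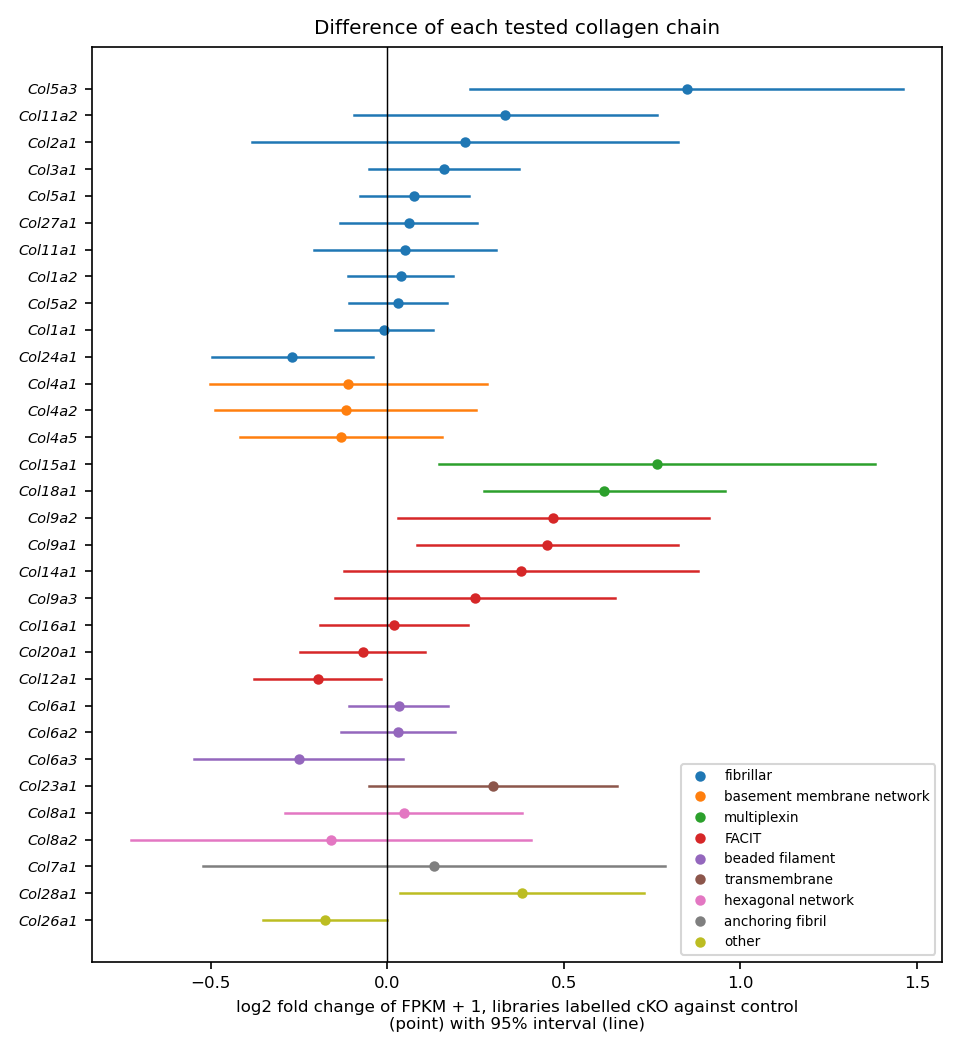
Log2 fold change of FPKM + 1 for each of the 32 tested collagen chains, libraries labelled cKO against control, as a point with its 95% interval, coloured by class. The intervals of Col5a3, Col15a1, Col18a1, Col9a1, Col9a2 and Col28a1 lie above 0, those of Col24a1 and Col12a1 below, and the type I chains sit at 0 with short intervals.

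In the basement membrane, the network chains and the multiplexins gave different values. Col4a1 and Col4a2, which form the common type IV trimer and lie head to head on chromosome 8 (11198423 to 11312826 on the minus strand and 11312805 to 11449287 on the plus strand), followed each other across libraries. Col4a1 had an FPKM of 56.19, 62.19 and 63.20 in the control libraries and 42.26, 65.18 and 63.42 in those labelled cKO (log2 fold change -0.11, SE 0.17, adjusted p = 0.785). Col4a2 had 51.81, 54.29 and 53.97 against 37.52, 58.07 and 54.18 (log2 fold change -0.12, SE 0.16, adjusted p = 0.758). For both chains cKO replicate 1 was the lowest library and cKO replicate 2 the highest, so the groups overlapped entirely, and without cKO replicate 1 the sign turned, to 0.09 for Col4a1 and 0.07 for Col4a2. Their exons share 22 bases on opposite strands, and the sources used here do not say whether counting used the strand. Col4a5, an X-linked chain of a second type IV trimer, had 12.57, 10.08 and 12.36 against 12.36, 9.69 and 9.72 (log2 fold change -0.13, and -0.08 to -0.24 with each library left out, the former without cKO replicate 2 and the latter without cKO replicate 1). Col4a3, Col4a4 and Col4a6, of the other type IV trimers, stayed under an FPKM of 1 in every library and were not tested. Col4a6 had 0.36, 0.33 and 0.37 against 0.54, 0.35 and 0.40. Col4a4 had 0.02, 0.02 and 0.02 against 0.04, 0.12 and 0.04, without overlap but within a few steps of the rounding, and Col4a3 had at most 0.06.

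The multiplexins Col18a1 and Col15a1 were the class with the largest median difference, 0.69 on the log2 scale, from 2 chains. Col18a1 (chr10:77052178-77166548), whose C-terminal end is released as endostatin, had an FPKM of 20.08, 28.36 and 24.27 in the control libraries and 34.40, 43.55 and 34.64 in those labelled cKO. Each library labelled cKO lay above each control library. The mean was 24.2 ± 4.14 against 37.5 ± 5.21 (SD, n = 3 each), a log2 fold change of 0.62 (SE 0.14, 95% interval 0.27 to 0.96, adjusted p = 0.312), and it lay between 0.49 and 0.73 with each library left out in turn. Col15a1 (chr4:47208161-47313167) was scarcer, with 1.94, 1.48 and 2.74 against 2.47, 5.68 and 4.76. Here cKO replicate 1 lay below control replicate 3 and the other 2 libraries labelled cKO lay above all others. The mean was 2.05 ± 0.638 against 4.30 ± 1.65 (SD, n = 3 each), a log2 fold change of 0.76 (SE 0.26, adjusted p = 0.321). Without cKO replicate 1 it was 1.04 with an adjusted limma p of 0.0436, in the fit where 324 of all tested genes were under 0.05. Without cKO replicate 2 it was 0.57 with an adjusted limma p of 0.605. The summed FPKM of the 2 multiplexins was 26.3 ± 3.96 against 41.8 ± 6.53, whereas that of the 6 type IV chains was 125.9 ± 4.57 against 118.0 ± 22.1 (SD, n = 3 each).

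Because Col18a1, Col5a3 and Col15a1 had the 3 largest fold changes among the tested chains, the 250 bases before their RefSeq start sites (GRCm38.p6) are shown, 5′ to 3′ on the strand of the gene. Capitals mark the motifs searched on both strands, which were the TATA box TATAAA, the CCAAT box CCAAT and the GC box GGGCGG. The windows are chr10:77166531-77166780 (minus strand, the upstream one of 2 start sites in the table for Col18a1), chr9:20815068-20815317 (minus strand) and chr4:47207762-47208011 (plus strand).
Col18a1: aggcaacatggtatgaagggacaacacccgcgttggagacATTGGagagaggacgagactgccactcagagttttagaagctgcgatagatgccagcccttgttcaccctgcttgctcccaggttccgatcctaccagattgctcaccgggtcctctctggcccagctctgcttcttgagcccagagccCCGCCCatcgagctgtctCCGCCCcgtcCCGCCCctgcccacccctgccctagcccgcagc
Col5a3: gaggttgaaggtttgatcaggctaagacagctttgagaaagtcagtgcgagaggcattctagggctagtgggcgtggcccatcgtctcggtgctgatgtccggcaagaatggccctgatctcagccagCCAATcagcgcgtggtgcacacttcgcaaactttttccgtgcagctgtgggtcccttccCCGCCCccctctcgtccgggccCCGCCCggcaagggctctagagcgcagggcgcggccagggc
Col15a1: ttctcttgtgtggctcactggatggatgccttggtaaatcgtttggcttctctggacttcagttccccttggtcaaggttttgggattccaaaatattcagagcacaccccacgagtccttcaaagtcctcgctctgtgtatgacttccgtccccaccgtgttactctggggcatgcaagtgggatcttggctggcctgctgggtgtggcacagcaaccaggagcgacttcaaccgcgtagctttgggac
The Col18a1 window held 1 CCAAT box and 3 GC boxes, while the window of its other start site (chr10:77113706-77113955) held 0 of each motif. The Col5a3 window held 1 and 2 of them, and the Col15a1 window held none of these motifs. Windows of this length were given for 35 of the 44 chains, 38 in all. A GC box was in 22 of the 38 (57.9%), beside 32.7% of all 32851 windows in the table. A CCAAT box was in 13 (34.2%) beside 33.8%, and a TATA box in 5 (13.2%) beside 12.4%. A match is a description of the sequence and not of a bound factor.

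**Figure D3:**
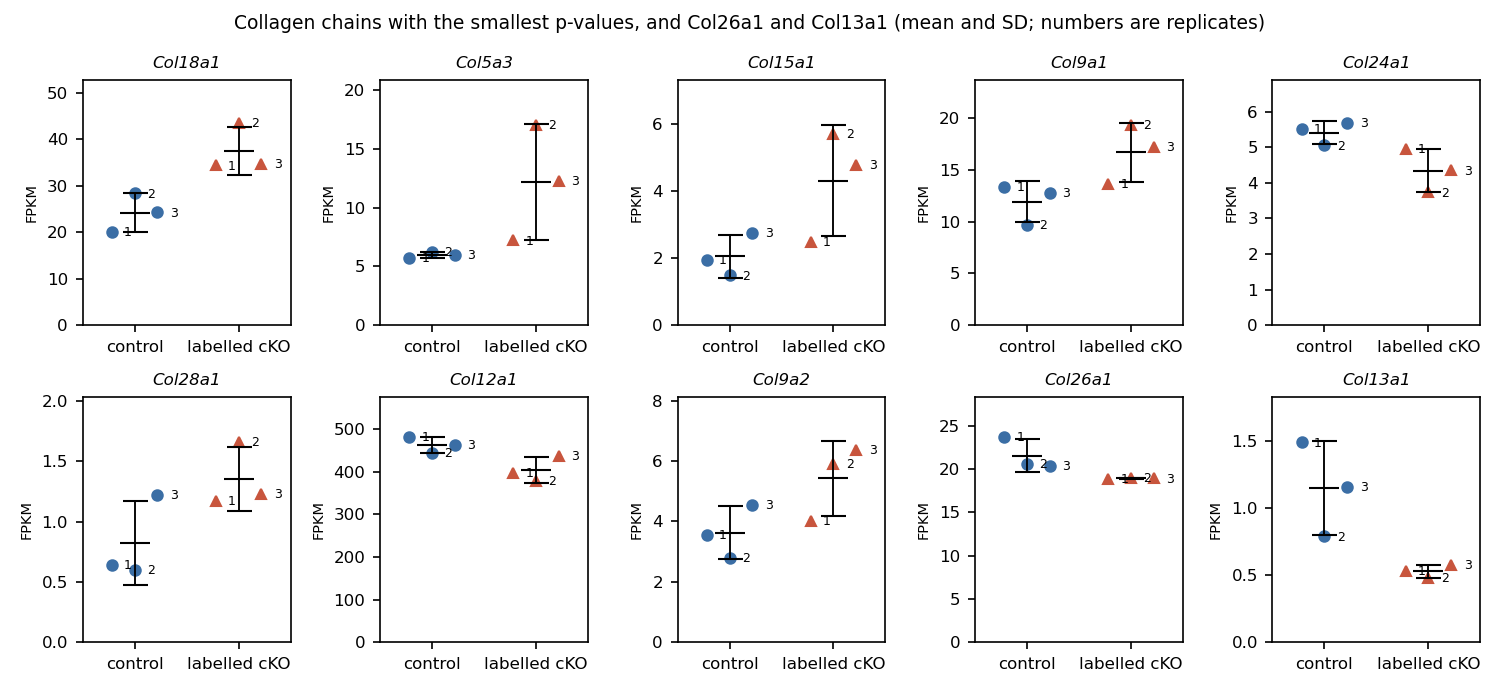
FPKM by library for the 8 collagen chains with an unadjusted p under 0.05 and for Col26a1 and Col13a1, with each replicate numbered and the mean and SD of each group as bars. Col18a1, Col5a3 and Col9a1 have all 3 libraries labelled cKO above control, Col24a1, Col12a1, Col26a1 and Col13a1 have all 3 below, and Col15a1, Col28a1 and Col9a2 overlap.

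FACIT collagens went both ways. The type IX chains Col9a1, Col9a2 and Col9a3, which form 1 trimer on the surface of type II fibrils and have equal runs of 113 groups, all had a log2 fold change above 0. Col9a1 had an FPKM of 13.37, 9.68 and 12.74 in the control libraries and 13.65, 19.29 and 17.19 in those labelled cKO, with cKO replicate 1 only just above the highest control library. Its mean was 11.9 ± 1.97 against 16.7 ± 2.85 (SD, n = 3 each), a log2 fold change of 0.45 (SE 0.16, 95% interval 0.08 to 0.82, adjusted p = 0.321). Col9a2 had 3.55, 2.80 and 4.55 against 4.02, 5.89 and 6.38, with cKO replicate 1 inside the control range (log2 fold change 0.47, SE 0.19, adjusted p = 0.363). With Y-linked expression as a covariate, Col9a2 no longer had an unadjusted p under 0.05 (log2 fold change 0.43, adjusted p = 0.526) and Col9a3 did (0.35, adjusted p = 0.473). Col9a3 had 19.03, 21.83 and 19.08 against 19.02, 31.08 and 22.92 (log2 fold change 0.25, SE 0.17, adjusted p = 0.543), a value that was 0.064 without cKO replicate 2 and 0.40 without cKO replicate 1. Its exons share 234 bases, 6.07% of their length, with Tcfl5 on the opposite strand, which had an FPKM between 8.42 and 17.2, and if strand was not used reads of the shared bases cannot be assigned.

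Col12a1, a FACIT of tendon and of the bone surface, was the FACIT chain with the highest level and went the other way. Its FPKM was 481.21, 443.76 and 462.14 in the control libraries and 396.60, 377.56 and 436.78 in those labelled cKO, so that all 3 of the latter lay below control. The mean was 462.4 ± 18.7 against 403.6 ± 30.2 (SD, n = 3 each), a log2 fold change of -0.20 (SE 0.08, 95% interval -0.38 to -0.02, adjusted p = 0.350). Col14a1, its near relative, had 18.68, 21.25 and 31.05 against 26.69, 38.39 and 27.21, which overlapped (log2 fold change 0.38, SE 0.21, adjusted p = 0.476, with 0.21 without cKO replicate 2, 0.23 without control replicate 1 and 0.58 without control replicate 3). Col16a1 had 140.10, 134.96 and 147.49 against 127.31, 155.53 and 146.22 (log2 fold change 0.02, 95% interval -0.19 to 0.23). Col20a1 lay between 1.35 and 1.74 in all libraries, and Col19a1 and Col22a1 stayed under 1. The median log2 fold change of the 7 tested FACIT chains was 0.25, while their summed FPKM with the 2 untested chains, most of it from Col12a1, was 664 ± 24.4 against 626 ± 34.8 (SD, n = 3 each).

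Beaded-filament chains were abundant and even, apart from Col6a3. Col6a1 and Col6a2, neighbours on chromosome 10 (76708792 to 76726168 and 76595762 to 76623630, both on the minus strand), join Col6a3 in the type VI trimer. Col6a1 had an FPKM of 1097.74, 1100.55 and 1042.55 in the control libraries and 1107.57, 1072.31 and 1134.37 in those labelled cKO (log2 fold change 0.03, 95% interval -0.11 to 0.17). Col6a2 had 1018.13, 1044.48 and 980.91 against 1010.08, 992.22 and 1108.26 (log2 fold change 0.03, 95% interval -0.13 to 0.19). Col6a3, the longest of these chains, had 392.40, 406.07 and 299.26 against 321.88, 284.68 and 308.27. Control replicate 3 lay with the libraries labelled cKO, so the groups overlapped, at a mean of 365.9 ± 58.1 against 304.9 ± 18.8 (SD, n = 3 each) and a log2 fold change of -0.25 (SE 0.12, adjusted p = 0.431), which was -0.39 without control replicate 3. Col6a4, Col6a5 and Col6a6, the alternatives to Col6a3, stayed under 1. Col6a6 had 0.44, 0.16 and 0.84 against 0.41, 0.84 and 0.70, and Col6a4 at most 0.11. Col6a5 was among them the chain without overlap, at 0.03, 0.07 and 0.05 against 0.14, 0.15 and 0.09, values of a few hundredths in a table rounded to hundredths.

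Of the transmembrane collagens, only Col23a1 passed the filter on low values. It had an FPKM of 4.21, 3.75 and 5.88 in the control libraries and 5.07, 6.23 and 6.24 in those labelled cKO (log2 fold change 0.30, SE 0.15, adjusted p = 0.428, with 0.19 without control replicate 2 and 0.46 without control replicate 3). Col13a1, a collagen of the cell surface found at adhesion sites, was under the filter but did not overlap between groups, at 1.49, 0.79 and 1.16 against 0.53, 0.48 and 0.58. In the fit without the filter its log2 fold change was -0.48 (SE 0.12, adjusted p = 0.380). Col17a1, a hemidesmosome chain of epithelia, lay between 0.12 and 0.30, and Col25a1 between 0.14 and 0.51.

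Among the remaining chains, Col8a1 and Col8a2 form hexagonal sheets beneath endothelia and in other tissues. Col8a1 had an FPKM of 135.92, 109.63 and 166.09 in the control libraries and 137.98, 141.29 and 140.16 in those labelled cKO (log2 fold change 0.05). Col8a2 had 76.93, 53.48 and 75.98 against 42.39, 71.53 and 73.50, with cKO replicate 1 the lowest (log2 fold change -0.16, SE 0.24, adjusted p = 0.785). Col10a1, the marker of hypertrophic cartilage, lay between 0.11 and 0.47. Col7a1, the anchoring fibril chain of skin, had 17.88, 17.31 and 14.49 against 26.87, 11.32 and 19.50, with the highest and the lowest library both labelled cKO (log2 fold change 0.13, SE 0.28, adjusted p = 0.854).

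Col26a1 and Col28a1 belong to no class above. Col26a1 had an FPKM of 23.72, 20.60 and 20.34 in the control libraries and 18.85, 19.00 and 18.91 in those labelled cKO, without overlap (log2 fold change -0.18, SE 0.07, adjusted p = 0.380, with -0.11 without control replicate 1). Col28a1 had 0.64, 0.60 and 1.22 against 1.17, 1.66 and 1.23 (log2 fold change 0.38, SE 0.15, adjusted p = 0.348). It reached the filter on low values through the libraries labelled cKO, which selects for a difference in that direction, and with the Y-linked covariate its unadjusted p was no longer under 0.05 (log2 fold change 0.35, adjusted p = 0.516).

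Level and difference can be set against each other over the whole family. The 13 tested chains with a mean FPKM of at least 100 had log2 fold changes no larger in size than 0.25, the value of Col6a3, and the 7 with at least 500 none larger than 0.16, the value of Col3a1. Values of all tested genes at these levels are not given here, so no trait of collagens is read from these limits. Ratios within a library were taken for pairs of chains, and tested for Col1a1 with Col1a2 and Col4a1 with Col4a2, which share a trimer. The ratio of Col1a1 to Col1a2 was 1.05, 1.10 and 0.986 in the control libraries and 1.02, 0.989 and 1.02 in those labelled cKO (difference of log2 ratios -0.05, exact two-sided permutation p = 0.5). The ratio of Col4a1 to Col4a2 was 1.08, 1.15 and 1.17 against 1.13, 1.12 and 1.17 (difference 0.01, exact two-sided permutation p = 1). Adjusted over these 2 ratios, both exact permutation p-values were 1, and 3 libraries against 3 cannot give a p under 0.1. The Col4a1 to Col4a2 ratio in cKO replicate 1, 1.13, was within the range of the other libraries although both chains were at their lowest there. The ratio of Col6a3 to Col6a1 was 0.357, 0.369 and 0.287 against 0.291, 0.265 and 0.272, and that of Col3a1 to Col1a1 was 0.431, 0.447 and 0.541 against 0.558, 0.536 and 0.497. In each of these, control replicate 3 fell inside the range of the libraries labelled cKO.

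**Figure D4:**
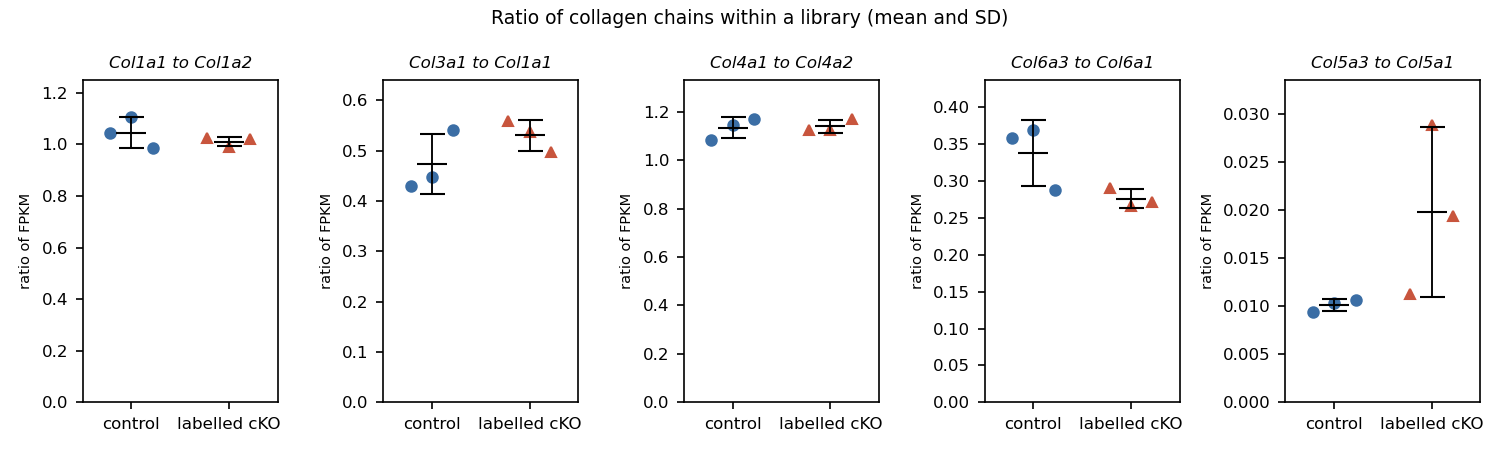
Ratio of the FPKM of a pair of collagen chains within each library, control as circles and labelled cKO as triangles, with the mean and SD of each group. The ratios Col1a1 to Col1a2 and Col4a1 to Col4a2 stay near 1 in all 6 libraries, whereas Col5a3 to Col5a1 spreads from 0.0112 to 0.0288 among the libraries labelled cKO.

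The libraries labelled cKO were not alike in their collagen profile. Replicate 2 was the highest of the 6 libraries for 11 of the 32 tested chains, among them Col18a1, Col5a3, Col15a1, Col9a1, Col9a3 and Col14a1, as it was for 23.6% of all tested genes. Replicate 1 was the lowest for 7 chains, Col4a1, Col4a2, Col8a2, Col9a3, Col11a1, Col16a1 and Col26a1, as for 15.3% of all genes. Replicate 3 was the lowest for 0 chains, although it was for 26.4% of all genes. Control replicate 2 was the lowest for 10 chains, beside 15.6% of all genes.

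**Figure D5:**
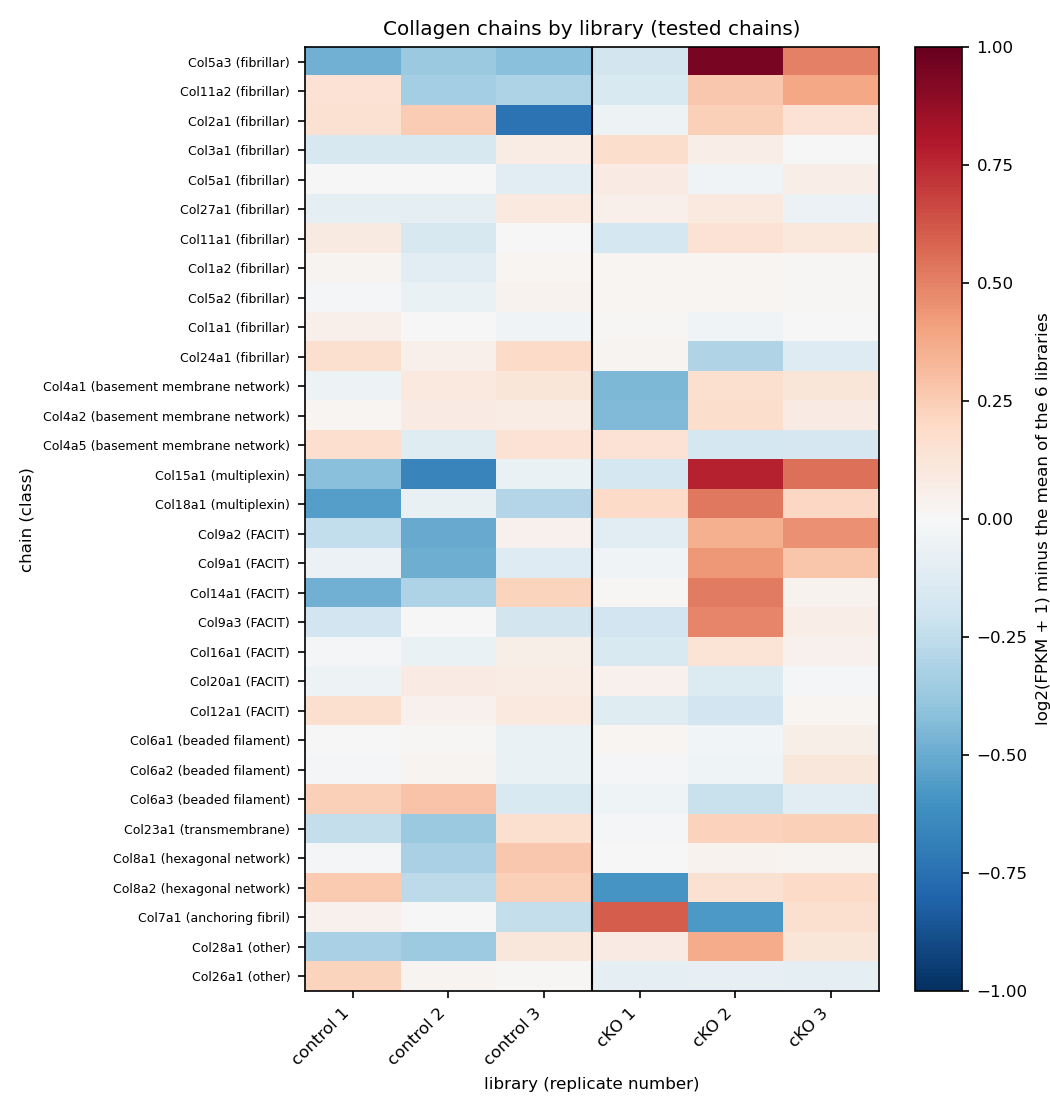
Heat map of log2(FPKM + 1) of the 32 tested collagen chains in each library, as the difference from the mean of the 6 libraries, with chains in rows by class. In cKO replicates 2 and 3 the rows of Col5a3, Col15a1, Col18a1, Col9a1 and Col9a2 are above the mean, while in cKO replicate 1 only Col18a1 of these is.

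Chains need enzymes and chaperones to become collagen, and a list of 37 such genes was examined, of which 33 were tested. In limma, 0 had an adjusted p under 0.05, 6 were higher and 2 lower at an unadjusted p under 0.05 (5.37% and 7.76% of all tested genes), and 19 had a log2 fold change above 0 (44.2% of all). The prolyl 4-hydroxylase subunits P4ha1 and P4ha2, whose product stabilises the helix, were among the 6. P4ha1 had an FPKM of 99.99, 91.63 and 90.53 in the control libraries and 108.12, 115.55 and 125.29 in those labelled cKO (log2 fold change 0.30, SE 0.08, adjusted p = 0.312). P4ha2 had 96.83, 93.69 and 91.84 against 111.34, 138.39 and 132.14 (log2 fold change 0.43, SE 0.09, adjusted p = 0.312). For both, every library labelled cKO lay above control.

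The lysyl hydroxylases Plod1 and Plod2, which prepare lysines for crosslinks, were also among them. Plod2 had 30.76, 40.46 and 35.32 against 40.21, 55.42 and 56.20 (log2 fold change 0.49, SE 0.15, adjusted p = 0.312). Plod1 had 107.12, 92.05 and 88.94 against 100.95, 143.50 and 144.23 (log2 fold change 0.41, SE 0.15, adjusted p = 0.342). As with Col5a3 and Col15a1, cKO replicate 1 was the library labelled cKO nearest to control for both genes. Lox, the oxidase that starts the crosslink, had 452.13, 405.75 and 451.62 against 508.19, 523.18 and 572.77 (log2 fold change 0.29, SE 0.08, adjusted p = 0.312), without overlap. Itga1, a subunit of a collagen receptor, had 2.84, 3.01 and 3.66 against 4.06, 5.83 and 4.39 (log2 fold change 0.46, SE 0.13, adjusted p = 0.312). The 2 that were lower were P3h4, a partner of lysyl hydroxylation, with a log2 fold change of -0.29 (SE 0.09), and the collagen receptor Ddr1, with -0.18 (SE 0.07). Itga10, also listed with the receptors, had -0.26 (SE 0.15) and Loxl1, listed with the crosslinking genes, -0.11 (SE 0.12). Both had an unadjusted limma p above 0.05. The collagen chaperone Serpinh1 (0.05, SE 0.06), the proline isomerase Fkbp10 (-0.09, SE 0.08) and Sparc (0.01, SE 0.08) had log2 fold changes near 0. Of the 6 tested genes of propeptide cleavage, 0 had an unadjusted limma p under 0.05 and the median log2 fold change was 0.05. The largest in size there were Adamts14 (-0.13) and Bmp1 (0.10).

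Markers of the labelled cell type were present, and most of the osteoblast list was lower in the libraries labelled cKO. Of its 8 genes, 1 had a log2 fold change above 0 (44.2% of all tested genes did), and the median was -0.33. All 8 genes of the osteoblast list were tested, and 4 were lower in the libraries labelled cKO at an unadjusted p under 0.05 (7.76% of all tested genes), while 0 were higher (5.37% of all). Ibsp, a mineral-binding matrix protein, had an FPKM of 123.86, 61.90 and 48.79 against 34.64, 26.17 and 27.65, a log2 fold change of -1.27 (SE 0.32, adjusted p = 0.312). The others were Bglap (-1.15, SE 0.35), Sp7 (-0.48, SE 0.12) and Alpl (-0.45, SE 0.13). Runx2 (-0.21, SE 0.09) and Twist1 (-0.19, SE 0.10) also had a log2 fold change below 0, with an unadjusted limma p above 0.05. In the same list Col1a1 had a log2 fold change of -0.01, and Spp1, a matrix protein that is also made late, had 1521.64, 2083.14 and 1336.88 against 1729.21, 1967.56 and 1607.11 (log2 fold change 0.12, SE 0.17, adjusted p = 0.767).

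Markers of other cell types are given beside the chains that such cells also make, with counts at an unadjusted p under 0.05 to be read against 5.37% higher and 7.76% lower among all tested genes. In the chondrocyte list, beside the type II, IX and XI chains, 7 of 9 genes were tested, with 2 higher (Comp 0.65 and Acan 0.50 on the log2 scale) and 1 lower (Sox6 -0.31) at an unadjusted p under 0.05. Its summed FPKM was 29.3 to 38.6 in the control libraries and 41.4 to 45.1 in those labelled cKO. Most of this sum was Comp and Sox9, and Comp overlapped, at 12.61, 16.57 and 9.63 against 24.23, 16.07 and 21.57. Hapln1 had a log2 fold change of -0.27, below 0 like Sox6. Matn1 was listed at 0 in 5 of 6 libraries and Snorc in 3. The FPKM of Acan was 2.21, 3.39 and 2.24 against 2.76, 4.66 and 5.01. Its highest control value was in replicate 2, where Col9a1 and Col9a2 were at their lowest and Col9a3 was the highest of the controls. In the tendon list, beside Col12a1 and Col14a1, 3 genes were tested and Scx was higher (0.21), while Mkx had a log2 fold change of -0.13, with a summed FPKM of 166.4 to 258.1 against 184.6 to 215.9.

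For basement membrane chains the lists of endothelial, mural, epithelial and fat cells apply. Endothelial markers summed to 1.84 to 3.87 in the control libraries and 1.84 to 3.40 in those labelled cKO, with 1 of 5 tested (Cdh5, log2 fold change -0.12) and Pecam1 at 0.73 or less in every library. Smooth muscle and pericyte markers summed to 1980 to 2158 against 1747 to 2044, nearly all of it Acta2 (Cnn1 -0.33 and Myh11 -0.22 on the log2 scale), with 0 of 4 tested genes at an unadjusted p under 0.05 in either direction in limma. Epithelial markers summed to 0.46 to 13.2 against 17.0 to 42.6, and all 3 tested genes were higher, Krt18 by 2.48 and Krt8 by 2.31 on the log2 scale, with Epcam, whose highest control value was 0.47 and whose lowest value in a library labelled cKO was 1.21, listed at 0 in control replicate 1. Epcam passed the filter on low values through the libraries labelled cKO alone, and control replicate 1 was under an FPKM of 1 for Krt8 and Krt18 as well, so the filter favours a difference in this direction and the count supports nothing. Of the fat cell markers 2 of 4 were tested, Fabp4 was higher (1.68), Lpl had a log2 fold change of 0.46, Plin1 was at 0.10 or less in every library, and the sum was 26.6 to 40.3 against 65.2 to 109. Macrophage markers summed to 30.6 to 82.7 against 40.9 to 65.8 (Cd68 0.33 and Csf1r -0.11 on the log2 scale), with 0 of 3 tested genes at an unadjusted p under 0.05 in limma. Y-linked genes (Eif2s3y 1.47 and Ddx3y 1.33 on the log2 scale) were high in control replicate 3 and in cKO replicates 1 and 3 and at most 0.17 in the others, so the sexes were not balanced between groups. With Y-linked expression as a covariate, 7 of the 32 tested chains and 1202 of all 11590 tested genes had an unadjusted limma p under 0.05. Among the 7 chains were Col18a1 (log2 fold change 0.67) and Col5a3 (0.98), with Col9a3 gained and Col9a2 and Col28a1 lost. The part of these other cells in the values of Col18a1, Col15a1, Col5a3 and the type IX chains was not tested.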

How the data were processed

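RNA was sequenced as 150 bp paired-end reads from 3 control libraries and 3 libraries labelled cKO of calvarial preosteoblasts. The authors mapped reads with HISAT2 to a mouse transcriptome (GRCm38 per the submitters' processing notes, which also name DESeq) and deposited FPKM, rounded to 2 decimals, for 17001 gene symbols. The program that computed FPKM, the annotation and any use of strand are not given in the sources used here. FPKM carries no read numbers, so depth is unknown and no count test was run. All value columns were used.

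From these values, a group-only model was fitted to log2(FPKM + 1) with lmFit and eBayes of limma 3.58.1 (R 4.3.3). It covered the 11590 rows in which 3 or more libraries reached an FPKM of 1, and p-values were adjusted over all of them by Benjamini-Hochberg. The script was tested on simulated data. Two-sided exact permutation tests were used for ratios. Values by library are given for chains with a mean FPKM of at least 10, with an unadjusted p under 0.05, with the smallest p of their class, or of types I, IV and VI (Col4a3 and Col6a4 by their maximum). Genes of the lists are named where their unadjusted p was under 0.05 or their fold change was among the 2 largest of the list. Others were named outside this rule, among them Col1a1, Spp1, Runx2, Twist1, Sparc, Hapln1, Sox9, Acta2, Matn1, Snorc, Pecam1 and Plin1. Col13a1, outside the rule for chains, was singled out after its values were seen. The result of 1 marker list is not reported here. The chains, the gene lists and the tests were chosen with earlier results of these data known. Coding sequences and exons were read from GENCODE M21 and promoters from RefSeq GRCm38.p6. A run is a stretch of at least 4 groups of 3 codons that each open with a glycine codon. Alternatives changed the pseudocount, the filter, the variance trend, the scaling, the replicate block, a Y-linked covariate and each library in turn.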

Additional observations from a re-analysis of the deposited data

How the results depend on the processing

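The number of collagen chains with an unadjusted p under 0.05 in limma was 8, beside 1521 of all 11590 tested genes. It was 8 with a pseudocount of 0.1 (1469 genes) or 0.5 (1492 genes), and 10 of 44 without a filter (1996 of 17001 genes). It was 8 with a filter on the mean (1516 of 11536 genes) and 9 with a variance trend (1570 genes). It was 8 after scaling to equal sums (1578 genes) and 7 after scaling to equal upper quartiles (1496 genes). Leaving out 1 library at a time gave 3 to 11. The number with an adjusted p under 0.05 was 0, and 0 to 2 with each library left out, the 2 being Col5a3 and Col15a1 without cKO replicate 1. Over all genes the adjusted count was 0, and 0 to 324 with a library left out (324 without cKO replicate 1, 2 without control replicate 3). The unadjusted count over all genes was 1521, and 852 to 2461 with a library left out (852 without cKO replicate 3, 963 without cKO replicate 2, 929 without control replicate 1 and likewise without control replicate 2, and 2461 without cKO replicate 1). In a fit with the replicate number as a block, 7 chains had an unadjusted p under 0.05, 0 an adjusted one, and 1465 genes an unadjusted one. Same-numbered libraries deviated from their group means with correlations of 0.03, -0.17 and 0.21. Differently numbered libraries gave -0.27 to 0.28, so these few values cannot tell whether the numbers pair the samples.

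Col18a1 and Col5a3 had an unadjusted limma p under 0.05 in all 16 settings, which refit the same 6 libraries in whole or in part. Both had an adjusted limma p of 0.312 in the main fit. Of the 32 tested chains, 21 kept 1 sign in every alternative. Shares of all tested genes for these counts are not given here, so no trait of collagens is read from them. With all 6 libraries, 2 values reversed, Col1a1 to 0.011 after upper-quartile scaling and Col8a1 to -0.023 with the Y-linked covariate. With each library left out, the log2 fold change ran from -0.031 to 0.015 for Col1a1, -0.0052 to 0.061 for Col1a2, -0.093 to 0.40 for Col2a1, -0.018 to 0.15 for Col11a1, -0.045 to 0.099 for Col16a1, -0.22 to 0.088 for Col4a1, -0.24 to 0.071 for Col4a2, -0.019 to 0.061 for Col6a2, -0.14 to 0.45 for Col7a1, -0.10 to 0.19 for Col8a1 and -0.33 to 0.094 for Col8a2. The log2 ratio difference ran from -0.023 to 0.031 for Col4a1 to Col4a2 and from -0.09 to -0.01 for Col1a1 to Col1a2. Causes were not tested. Depth is unknown, so values under an FPKM of 1 carry an unknown counting error.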
